A study of Homo sapiens with 12 samples.

Results

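The actin cytoskeleton and motility genes described here are a list of 39 genes whose proteins build, bundle, anchor, contract or remodel actin filaments. A gene entered through a probe set that carried its symbol and no other, and where several did, through the one with the highest mean over the 12 arrays. By that rule 38 of the 39 genes had a value, among 11963 genes in all, and FLNA was not analysed here. All 38 passed the filter on low values, which kept 8992 genes for testing. That rule used no difference between groups, but the list itself was drawn up with earlier results of these arrays known and may reflect them.

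The arrays came from 3 head and neck cancer lines. Fadu comes from a squamous carcinoma of the hypopharynx, OECM1 from one of the oral cavity, and the labels name the third line only as Detroit. Each line was measured as an invasion subline, meaning cells collected after they had been driven through Matrigel, a basement membrane extract, to enrich invasive cells, and as the unselected parent. The 6 groups were the Detroit, Fadu and OECM1 invasion sublines and the Detroit, Fadu and OECM1 parents, with 2 arrays each. No gene was edited and no drug was applied in any group, as far as the labels say. Total RNA from a Trizol extraction was biotin-labelled for Affymetrix arrays. The labels do not say whether duplicates were separate cultures, so the p-values reflect the spread among these samples alone, and that spread may be technical. Values are log2 RMA values, so a difference of 1 is a doubling, and levels of different genes were not set against each other because probe sets differ in brightness. A gene was called when its limma p, after Benjamini-Hochberg adjustment across all 8992 genes, was under 0.05.

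Cells crawl by pushing the front membrane out with branched and bundled actin and by pulling the rear in with myosin. The Arp2/3 complex starts branches, formins lengthen unbranched filaments, crosslinkers such as alpha-actinin, fascin and the plastins bundle them, and ezrin and moesin tie them to the membrane. Focal adhesions couple the filaments to integrins. In squamous carcinoma cells the same machinery carries collective and single-cell invasion through a matrix.

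The 2 arrays labelled Detroit invasion subline stood apart from their labelled parent. Over all 8992 genes, which are not independent replicates, the root mean square log2 difference between group means was 0.772 from that subline to the Detroit parent and 0.451 to the Fadu parent. Over the 38 genes these distances were 1.07 and 0.380. Results that rest on those arrays are therefore given for the Detroit-labelled subline, as labelled, and whether the label holds was not tested. Its duplicates also differed most from each other, by a root mean square of 1.07 over the 38 genes, against 0.484 to 0.788 in the other groups. In these duplicates the 3 prime minus 5 prime signal of the ACTB controls, a measure of RNA integrity or labelling, was -0.28 and 0.80, and over the other 10 arrays it ran between -0.23 and 0.87. The Fadu and OECM1 duplicates were split in this signal too. It was -0.05 and 0.40 in the Fadu subline and 0.55 and -0.23 in the Fadu parent. In the OECM1 subline it was 0.06 and 0.63, and in the OECM1 parent 0.87 and 0.04. Of 10 squamous epithelial markers measured, 8 lay above the low-value limit of 4.52 on all 12 arrays. The mean of the epithelial list was 8.16 to 9.80 per array, and the means of the fibroblast, endothelial and leukocyte lists were 3.97 to 4.73. The mean of the smooth muscle list was 4.56 to 5.19 per array, and 3 of its 7 measured markers lay above the limit on all 12 arrays.

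The 38 genes spread somewhat more widely over the 6 groups than tested genes in general. Because the list was drawn up with earlier results of these arrays known, its spread is not independent of that choice. The range of the 6 group means had a median of 0.96, against 0.826 over all tested genes, and the median SD within groups was 0.439, against 0.350. In 8 of the 38 the group means spanned more than 2 log2 units, compared with 9.46% of all tested genes. These were the membrane linker MSN with 5.33, RHOB with 3.47, RND3 with 3.20, the Cdc42 effector CDC42EP3 with 3.35, the tropomyosin TPM1 with 2.77, the bundler LCP1 with 2.15, the calponin CNN3 with 2.02 and the calponin relative TAGLN with 2.00. At the other end, the group means of the Arp2/3 activator WASL spanned 0.41, those of the filament-severing CFL1 0.48 and those of the adaptor PXN 0.48. TAGLN was below the low-value limit on 9 arrays, MSN and TLN1 on 2 each and CDC42EP3 on 1, and the other 34 genes lay above it on every array.

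**Figure D1:**
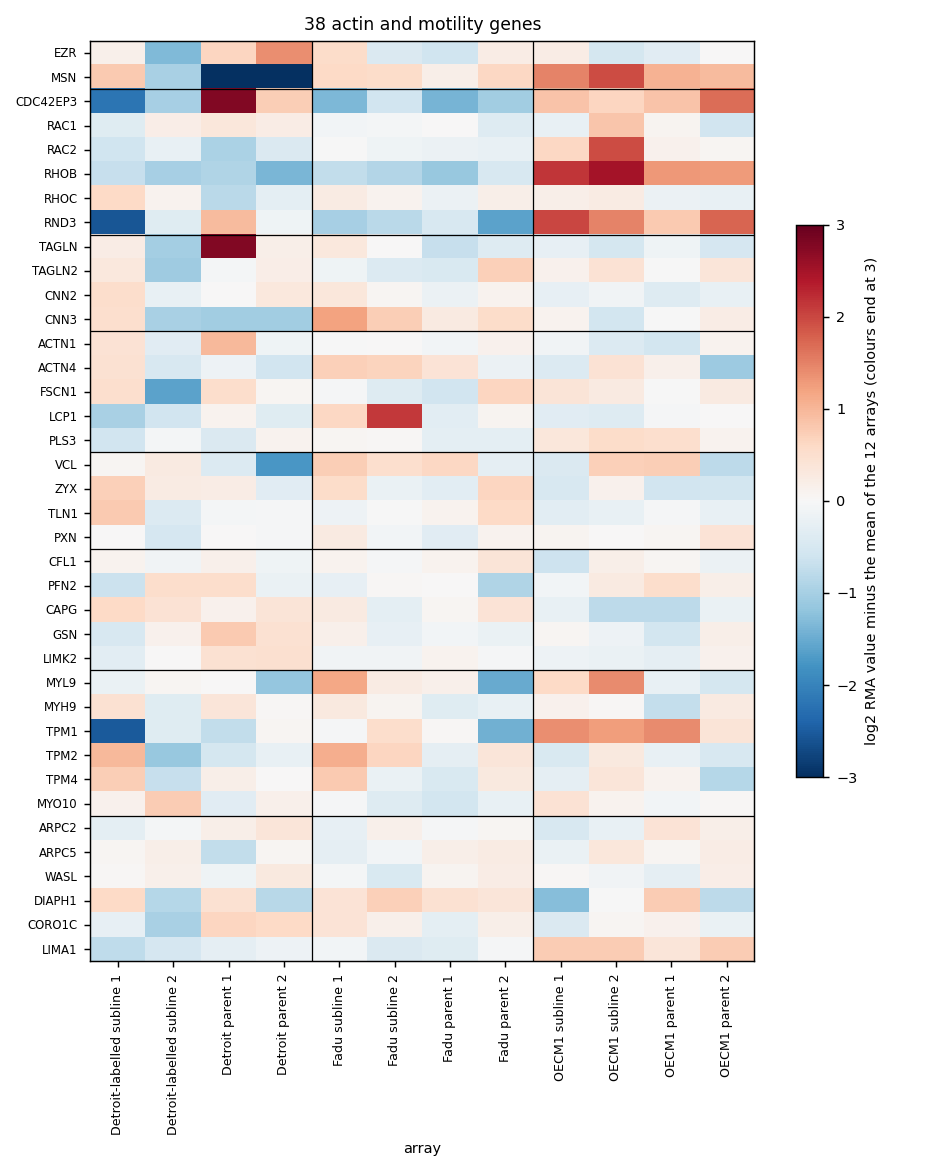
Each cell is the log2 RMA value of 1 gene on 1 array minus that gene's mean over the 12 arrays, with genes in rows grouped by role and arrays in columns grouped by line. MSN is lowest in both Detroit parent arrays, and RHOB is highest in the 4 OECM1 arrays.

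The Detroit-labelled subline differed from the Detroit parent in 2 of the 38 genes: MSN was higher and CDC42EP3 was lower. In this comparison limma called 295 of all genes, or 3.28%, with 1.51% called higher and 1.77% called lower, so the count among the 38 was near the background. The share over all genes was 10.2% without the first Detroit-labelled subline array and 1.42% without the first Detroit parent array. At an unadjusted p under 0.05 there were 9 of the 38, compared with 16.1% of all genes. The median log2 fold change of the 38 was -0.11, against -0.01 over all genes, and 8 genes differed by more than 2-fold, compared with 13.6% of all. Arrays of both groups did not overlap in 7 genes that were higher and 10 that were lower in the Detroit-labelled subline, where the shares over all genes were 19.9% and 18.8%.

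Among the membrane linkers, MSN, which encodes moesin, read 7.93 and 6.16 in the Detroit-labelled subline, against 3.55 and 3.53 in the Detroit parent. Both parent values lay below the low-value limit, where RMA compresses values, and both subline arrays lay far above it. The log2 fold change was 3.51 with an SE of 0.483 and a limma adjusted p of 0.0029. With the parent arrays set at the limit, the MSN mean was at least 5.77-fold higher in the Detroit-labelled subline. That bound is for the mean and leaves out the spread of the subline duplicates. In bulk RNA, fewer cells with a transcript and less of it per cell cannot be told apart. MSN read 7.74 and 7.68 in the Fadu subline and 7.32 and 7.75 in the Fadu parent. In the OECM1 subline MSN read 8.64 and 9.10, against 8.18 and 8.09 in the OECM1 parent, so the Detroit parent was the 1 group with MSN below the limit. EZR, which encodes ezrin, the other linker, went the opposite way without being called. It read 8.98 and 7.51 in the Detroit-labelled subline, against 9.47 and 10.21 in the Detroit parent. The EZR log2 fold change was -1.59 with an SE of 0.555 and a limma adjusted p of 0.163, and 3 other EZR probe sets above the limit gave -1.66, -0.85 and -1.59. Without the first Detroit-labelled subline array, EZR was called, with a log2 fold change of -2.33 and a limma adjusted p of 0.0227.

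CDC42EP3, a septin-binding target of Cdc42, was 10.2-fold lower in the Detroit-labelled subline. It read 4.05 and 5.24 there, against 9.02 and 6.97 in the Detroit parent. The parent duplicates differed widely, but both lay above both subline arrays. Its log2 fold change was -3.35 with an SE of 0.614 and a limma adjusted p of 0.0139, and its 2 other probe sets gave -2.42 and -3.88. The call rested on the first Detroit parent array, since without it the value was -2.33 with a limma adjusted p of 0.0849. RND3 read 5.96 and 8.17 in the Detroit-labelled subline, against 9.46 and 8.38 in the Detroit parent. It was not called, with a log2 fold change of -1.86 and a limma adjusted p of 0.195. RHOC read 9.39 and 8.90 in the Detroit-labelled subline, against 7.97 and 8.50 in the Detroit parent. Its arrays did not overlap either, and its log2 fold change of 0.92 had a limma adjusted p of 0.175. RAC1, RAC2 and RHOB had log2 fold changes of -0.37, 0.28 and 0.30, none called.

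The remaining roles held no called gene in this comparison. CORO1C, a coronin that binds filaments and the Arp2/3 complex, came nearest to a call. It read 8.87 and 8.14 in the Detroit-labelled subline, against 9.76 and 9.70 in the Detroit parent, a log2 fold change of -1.23 with an SE of 0.356 and a limma adjusted p of 0.0949. Both subline arrays were below both parent arrays, and without the first Detroit-labelled subline array CORO1C was called at -1.60 with a limma adjusted p of 0.0245. VCL, which encodes the focal adhesion protein vinculin, read 9.27 and 9.48 in the Detroit-labelled subline, against 8.80 and 7.46 in the Detroit parent. The second parent array was the lowest of the 12, and the log2 fold change of 1.24 had a limma adjusted p of 0.352. TAGLN, which encodes transgelin, read 4.53 and 3.28 in the Detroit-labelled subline, against 7.08 and 4.49 in the Detroit parent, so the groups overlapped. On the same parent arrays the fibroblast marker COL1A2 read 8.50 and 5.35, while COL3A1, LUM, POSTN and FAP lay below the low-value limit on all 12 arrays. The fibroblast list of 10 markers averaged 4.41 and 4.12 on the Detroit-labelled subline arrays and 4.73 and 4.44 on the Detroit parent arrays in the same order. The Detroit parent array with the higher TAGLN and COL1A2 had the highest fibroblast mean of these 4. COL1A2 is itself 1 of the 10 markers averaged, so that mean is not separate from it. COL1A1, above the limit on every array, read 6.37 and 5.33 on the subline arrays and 6.29 and 6.26 on the parent arrays. PDGFRA, also above it throughout, read 5.51 and 5.21 against 5.35 and 5.34. Whether fibroblast RNA had a part in the TAGLN value was not tested. By role, log2 fold changes ran from -0.84 to 0.34 in the 5 crosslinkers and from -1.10 to 0.54 in the 6 myosins and tropomyosins. They ran from -0.24 to 1.24 in the 4 focal adhesion genes and from -0.79 to 0.25 in the 5 genes for monomer binding, severing and capping.

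**Figure D2:**
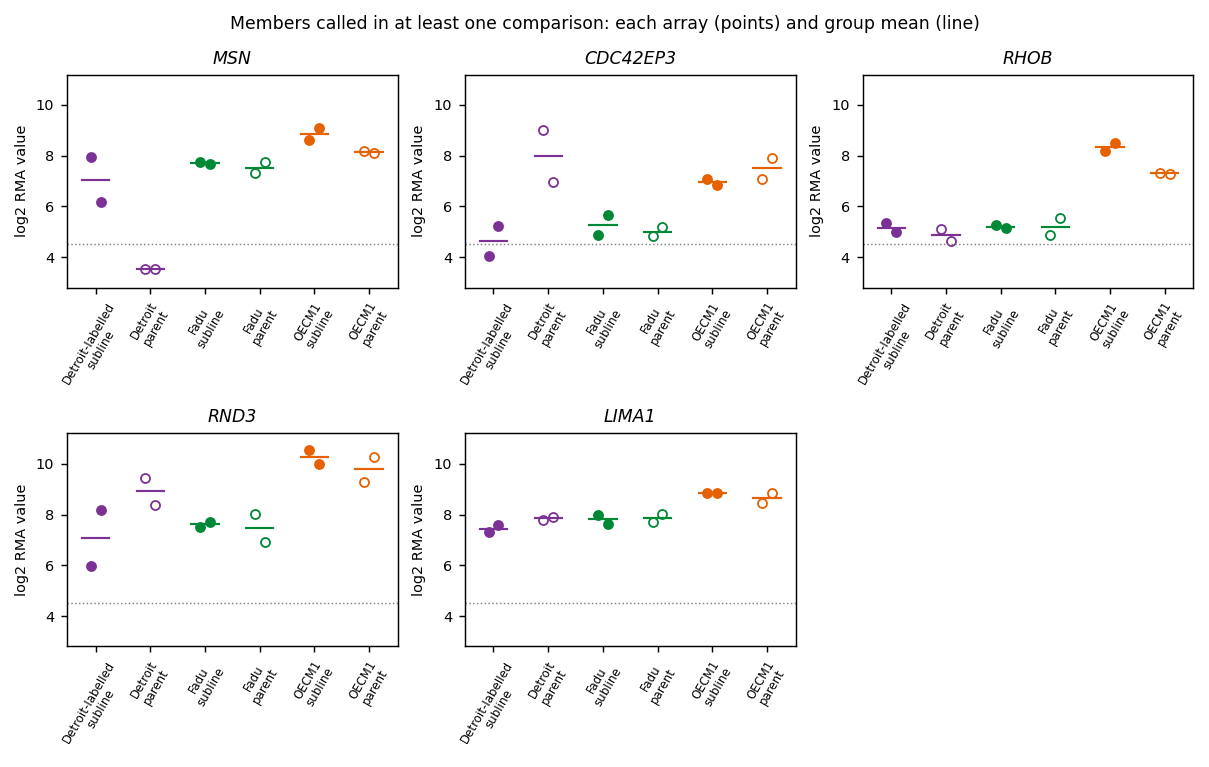
Log2 RMA values of the 5 genes called in at least 1 comparison, with filled points for invasion subline arrays, open points for parent arrays, short lines for group means and a dotted line at the low-value limit of 4.52. MSN is below the limit in the Detroit parent only, and RHOB, RND3 and LIMA1 are higher in all 4 OECM1 arrays than in the 4 Fadu arrays.

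Set against the Fadu parent instead, the Detroit-labelled subline differed in none of the 38 genes. Limma called 0 of all 8992 genes in that comparison (0%), with 351 at an unadjusted p under 0.05, and the count among the 38 was 0 under every alternative run. The count over all genes rested on the first Detroit-labelled subline array, since 246 genes, or 2.74%, were called without it. Of the 38, only MYO10, the myosin that carries cargo to filopodial tips, had an unadjusted limma p under 0.05. MYO10 read 8.46 and 9.10 in the Detroit-labelled subline, against 7.78 and 8.11 in the Fadu parent, a log2 fold change of 0.84 with an adjusted p of 0.9999. The 38 log2 fold changes ran from -0.74 to 0.84. Arrays did not overlap in 2 genes higher and 4 lower, where the shares over all genes were 14.1% and 14%. The Detroit-labelled subline mean lay nearer to the Fadu parent than to the Detroit parent in 25 of the 38 genes, or 65.8%, compared with 61.2% of all tested genes. The comparisons with the Detroit and the Fadu parent share the subline arrays, and for MSN they gave 3.51 and -0.49, for CDC42EP3 -3.35 and -0.37, for EZR -1.59 and -0.39, and for CORO1C -1.23 and -0.56.

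**Figure D3:**
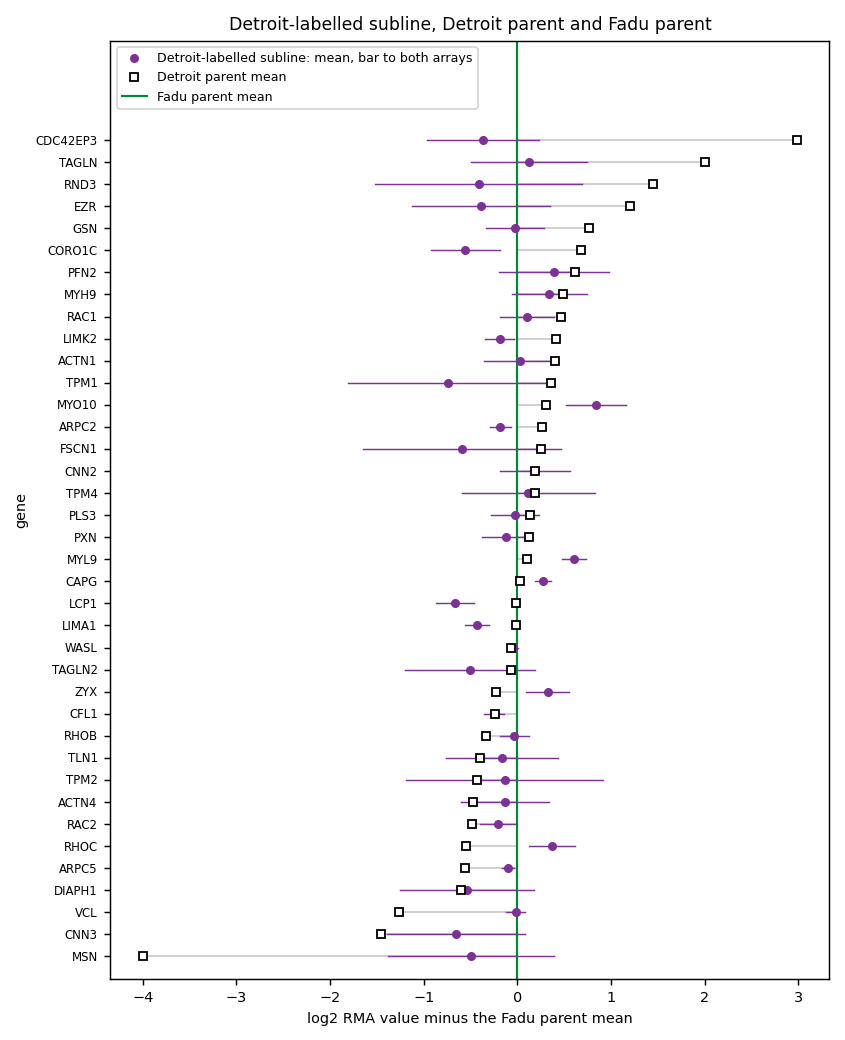
Group means of the 38 genes as log2 RMA values minus the Fadu parent mean, with genes in rows ordered by the Detroit parent. Filled points with bars are the Detroit-labelled subline mean and its 2 arrays, open squares are the Detroit parent, and the vertical line is the Fadu parent. MSN and CDC42EP3 lie near the vertical line in the subline and at -4.00 and 2.98 in the Detroit parent.

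Between the Fadu subline and the Fadu parent, limma called none of the 38 genes. It called 2 of all genes, both lower, or 0.0222%, and 0 of the 38 under every alternative run. Over all genes it called 0 to 3 without single arrays. At an unadjusted p under 0.05 there were 2 of the 38, LCP1 and MYL9, compared with 2.02% of all genes. More of the 38 lay above 0 than below, 27 genes, where the share over all genes was 46.8%, and their median was 0.18, against -0.02 over all. Arrays did not overlap in 9 genes higher and 4 lower in the subline, where the shares over all genes were 15.7% and 18%.

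LCP1 encodes L-plastin, an actin bundler best known from blood cells and found in many carcinomas. It read 6.73 and 8.23 in the Fadu subline, against 5.79 and 6.19 in the Fadu parent. Both subline arrays were above both parent arrays, the second by far. The log2 fold change was 1.49 with an SE of 0.424, a 2.81-fold difference, unadjusted p 0.0049 and adjusted p 0.9999 from limma. The leukocyte list of 9 measured markers averaged 4.18 and 4.13 on the Fadu subline arrays and 4.21 and 4.26 on the Fadu parent arrays, and PTPRC, the pan-leukocyte marker, was below the low-value limit on all 12 arrays. In the other lines LCP1 lay on the other side of 0. It read 5.12 and 5.53 in the Detroit-labelled subline, against 6.20 and 5.75 in the Detroit parent. In the OECM1 subline it read 5.75 and 5.72, against 6.07 and 6.12 in the OECM1 parent. Arrays did not overlap in any of the 3 lines, and the difference between the 3 LCP1 effects had an unadjusted p of 0.009 and an adjusted p of 0.295 in the limma F test.

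MYL9, the regulatory light chain of nonmuscle myosin II, read 7.77 and 6.87 in the Fadu subline, against 6.75 and 5.11 in the Fadu parent. The log2 fold change was 1.39 with an SE of 0.569 and an unadjusted limma p of 0.0333. TPM2, a tropomyosin that lies along filaments, read 8.66 and 8.23 in the Fadu subline, against 7.31 and 7.96 in the Fadu parent. Its log2 fold change was 0.82, and the second TPM2 probe set gave 0.56. For TPM1, whose arrays overlapped, 3 probe sets above the low-value limit gave 0.95, 1.00 and 0.67. TAGLN read 4.62 and 4.33 in the Fadu subline, against 3.63 and 3.93 in the Fadu parent, with 3 of these 4 values below the low-value limit. All 6 myosins and tropomyosins had a log2 fold change above 0, from 0.19 to 1.39 with a median of 0.65, and none was called. The smooth muscle list of 7 measured markers averaged 5.14 and 4.79 on the Fadu subline arrays and 4.82 and 5.07 on the Fadu parent arrays, and its CNN1 was below the limit on all 12 arrays. The first Fadu subline array had the higher MYL9, TPM2 and TAGLN of the pair and the higher smooth muscle mean. In the Fadu parent pair the second array had the higher smooth muscle mean, TPM2 and TAGLN but the lower MYL9. A part of smooth muscle RNA in these values was not tested.

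Between the OECM1 subline and the OECM1 parent, limma called 0 of the 38, again under every alternative run, and 0 of all genes (0%), or 0 to 6 without single arrays, with 4 of the 38 and 300 of all genes, or 3.34%, at an unadjusted p under 0.05. The 4 were RHOB, RAC2, MYL9 and ARPC2. The median log2 fold change of the 38 was 0.13, against 0.01 over all genes, and 24 of them lay above 0, compared with 50.9% of all. Arrays did not overlap in 8 genes higher and 4 lower in the subline, where the shares over all genes were 13.5% and 11.6%.

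RHOB, whose gene responds quickly to stress and growth signals, read 8.17 and 8.51 in the OECM1 subline, against 7.31 and 7.29 in the OECM1 parent. The log2 fold change was 1.04 with an SE of 0.304, unadjusted p 0.0059 and adjusted p 0.827 from limma. In the Fadu line its effect was 0.00 and in the Detroit-labelled line 0.30. RAC2, the Rac GTPase of blood cells, read 9.18 and 10.53 in the OECM1 subline, against 8.69 and 8.61 in the OECM1 parent. Its log2 fold change of 1.21 had an SE of 0.424 and an unadjusted limma p of 0.0159, and the second RAC2 probe set gave 1.44. On the same arrays the leukocyte list averaged 4.17 and 4.09 in the OECM1 subline and 3.99 and 4.27 in the OECM1 parent. MYL9 read 7.21 and 8.03 in the OECM1 subline, against 6.38 and 6.07 in the OECM1 parent, a log2 fold change of 1.39 with an unadjusted limma p of 0.0326. ARPC2, a core subunit of the Arp2/3 complex, was on the lower side. It read 9.90 and 10.15 in the OECM1 subline, against 10.78 and 10.55 in the OECM1 parent, a log2 fold change of -0.64 with an unadjusted limma p of 0.0342, and its 2 other probe sets gave -0.37 and -0.28. RHOC read 8.97 and 9.04 in the OECM1 subline, against 8.61 and 8.56 in the OECM1 parent, a log2 fold change of 0.42. By the probe sets used, the 6 myosins and tropomyosins again all lay above 0, from 0.27 to 1.39 with a median of 0.36, and none was called. For TPM2, the lowest at 0.27, the sign depended on the probe set, since the second TPM2 probe set gave -0.34. Other TPM1 probe sets above the low-value limit gave 0.83 and 0.62, and the second TPM4 probe set gave 0.80. The second MYO10 probe set, below the limit on 6 arrays, gave 0.25.

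**Figure D4:**
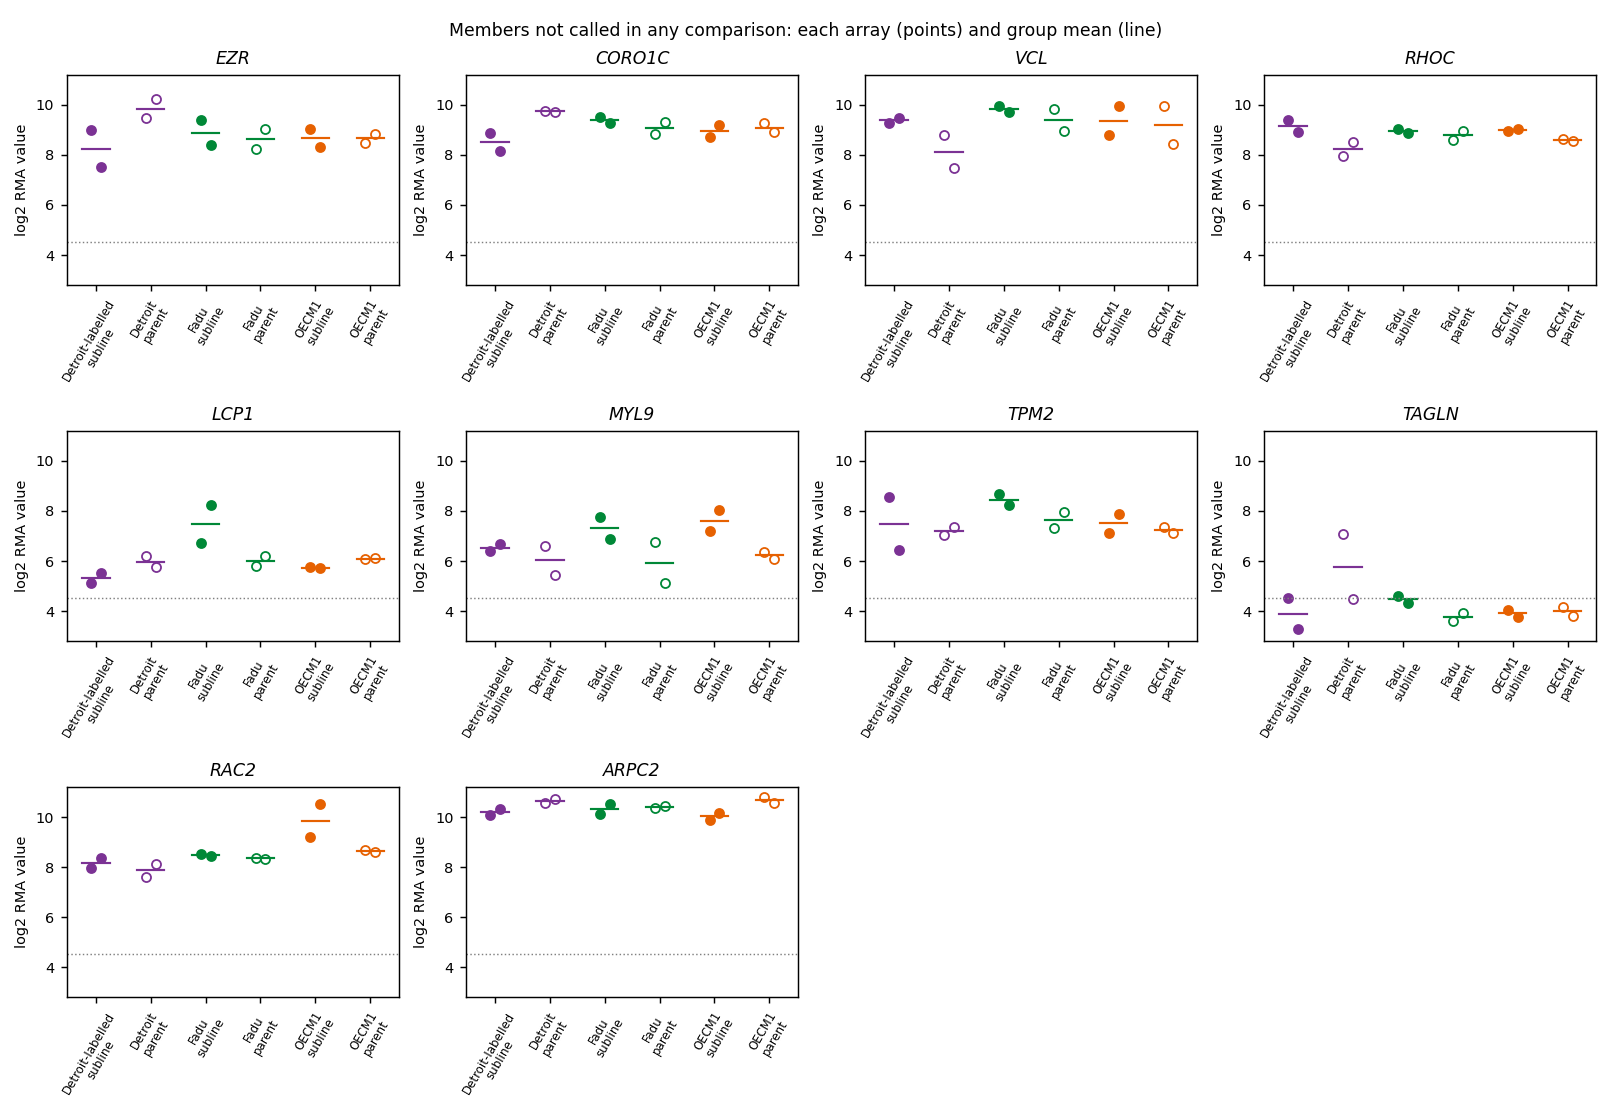
Log2 RMA values of 10 genes not called in any comparison whose subline and parent arrays did not overlap in at least 1 line, with filled points for invasion subline arrays, open points for parent arrays and a dotted line at the low-value limit. LCP1 is highest in the Fadu subline, and MYL9 is higher in the Fadu and OECM1 sublines than in their parents.

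Across the Fadu and OECM1 lines together, MYL9 and RAC2 were the 2 genes of the 38 in which the subline arrays lay above the parent arrays in both lines, compared with 2.18% of all genes. The RAC2 log2 fold change was only 0.13 in Fadu, against 1.21 in OECM1, and that of MYL9 was 1.39 in each line. TLN1, which encodes the integrin activator talin, was the 1 gene lower in both, compared with 2.49% of all genes. TLN1 read 4.62 and 4.75 in the Fadu subline, against 4.87 and 5.36 in the Fadu parent. In the OECM1 subline it read 4.44 and 4.54, against 4.73 and 4.54 in the OECM1 parent, where the middle values differed only in the third decimal. All were close to the low-value limit. With the effects of both lines averaged, MYL9 had a log2 fold change of 1.39 with an SE of 0.402, an unadjusted p of 0.0055 and an adjusted p of 0.999 from limma. Limma called 0 genes in all for this average (0%), with 264 at an unadjusted p under 0.05, among them MYL9, RAC2 and RHOB of the 38. Tested for a difference between the 3 lines, the subline effect was called in 63 of all genes, or 0.701%, and in 0 of the 38. The smallest adjusted p in that limma F test was 0.101 for MSN, followed by 0.201 for CDC42EP3, and 5 of the 38 had an unadjusted p under 0.05.

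**Figure D5:**
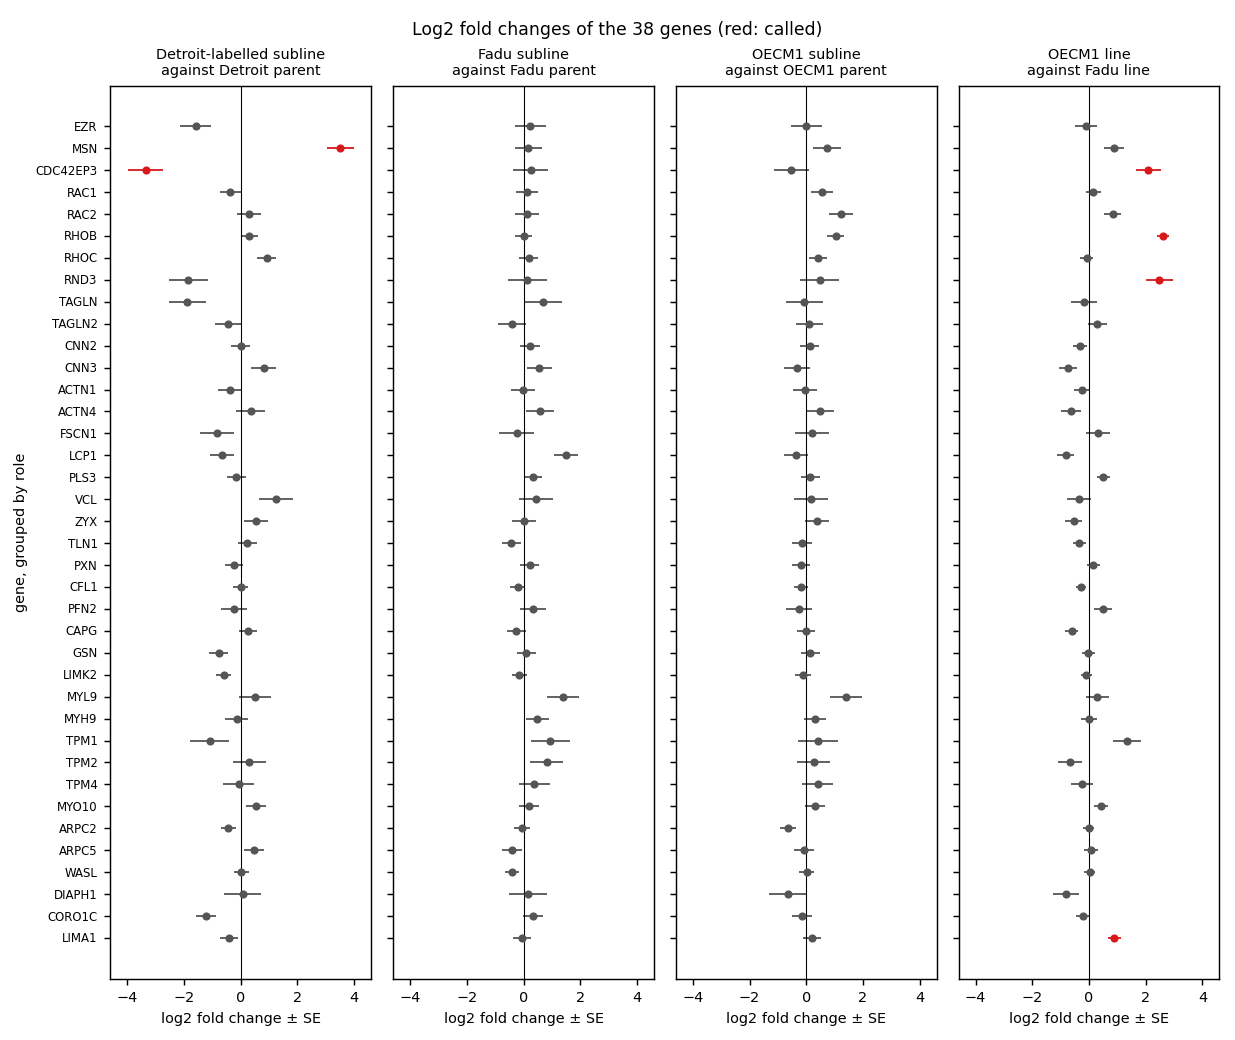
Log2 fold changes of the 38 genes with their SE in 4 comparisons, with genes in rows grouped by role and called genes in red. MSN and CDC42EP3 are called in the Detroit-labelled comparison, no gene in the Fadu or OECM1 comparison, and 4 genes between the OECM1 and Fadu lines.

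The OECM1 line, subline and parent averaged, differed from the Fadu line in 4 of the 38 genes, all higher in OECM1. They were RHOB, RND3, CDC42EP3 and LIMA1. Over all genes 14.7% were called, 7.85% higher and 6.88% lower. The count among the 38 was below that share, and the median log2 fold change of the 38 was -0.02, as it was over all genes. The 4 OECM1 arrays did not overlap with the 4 Fadu arrays in 7 genes that were higher and 1 that was lower, where the shares over all genes were 12% and 12.2%.

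RHOB was 6.13-fold higher in OECM1, a log2 fold change of 2.62 with an SE of 0.215 and a limma adjusted p of 4.555e-05. The 2 OECM1 subline arrays read 8.17 and 8.51 and the 2 parent arrays 7.31 and 7.29, against 5.28 and 5.13 in the Fadu subline and 4.87 and 5.53 in the Fadu parent. RND3 read 10.53 and 10.01 in the OECM1 subline and 9.30 and 10.27 in the OECM1 parent, against 7.52 and 7.70 in the Fadu subline and 8.04 and 6.92 in the Fadu parent. The 5.58-fold RND3 difference had a log2 value of 2.48, an SE of 0.485 and a limma adjusted p of 0.0069. CDC42EP3 read 7.08 and 6.87 in the OECM1 subline and 7.10 and 7.90 in the OECM1 parent, against 4.89 and 5.65 in the Fadu subline and 4.84 and 5.19 in the Fadu parent. Its log2 difference was 2.10 with an SE of 0.434 and a limma adjusted p of 0.0093, and its 2 other probe sets gave 0.97 and 2.62. LIMA1, which stabilises and bundles filaments and slows their branching, showed a smaller difference. It read 8.84 and 8.85 in the OECM1 subline and 8.44 and 8.84 in the OECM1 parent, against 7.99 and 7.65 in the Fadu subline and 7.71 and 8.03 in the Fadu parent. The LIMA1 log2 difference was 0.90 with an SE of 0.223 and a limma adjusted p of 0.0218, and its call was lost without any 1 of 6 Fadu or OECM1 arrays, with adjusted p between 0.0537 and 0.104. When both Detroit-labelled subline arrays were left out of the fit, 7 of the 38 were called, compared with 19.1% of all genes. The 3 added were MSN at 0.88 and TPM1 at 1.35, higher in OECM1, and CNN3 at -0.75, lower in OECM1, with limma adjusted p of 0.0153, 0.0252 and 0.0433.

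The promoters of RHOB, RND3 and CDC42EP3 are shown because these 3 genes were higher together in OECM1. Each is the 250 bases before the first listed transcript start in RefSeq, GRCh38.p14, 5′ to 3′ on the strand of the gene, with matches to the searched motifs in capitals. RHOB, chr2:20446824-20447073, plus strand, 1 listed start:
RHOB: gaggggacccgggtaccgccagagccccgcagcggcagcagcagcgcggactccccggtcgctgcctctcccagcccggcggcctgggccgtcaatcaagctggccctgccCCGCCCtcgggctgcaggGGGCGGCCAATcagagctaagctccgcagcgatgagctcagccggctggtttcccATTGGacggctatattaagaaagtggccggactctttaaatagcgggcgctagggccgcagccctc
RND3, chr2:150487696-150487945, minus strand, first of 2 listed starts:
RND3: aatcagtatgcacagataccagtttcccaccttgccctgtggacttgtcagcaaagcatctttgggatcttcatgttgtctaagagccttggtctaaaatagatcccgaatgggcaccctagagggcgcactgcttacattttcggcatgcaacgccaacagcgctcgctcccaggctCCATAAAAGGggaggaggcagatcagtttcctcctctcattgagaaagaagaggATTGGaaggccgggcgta
CDC42EP3, chr2:37672950-37673199, minus strand, first of 3 listed starts:
CDC42EP3: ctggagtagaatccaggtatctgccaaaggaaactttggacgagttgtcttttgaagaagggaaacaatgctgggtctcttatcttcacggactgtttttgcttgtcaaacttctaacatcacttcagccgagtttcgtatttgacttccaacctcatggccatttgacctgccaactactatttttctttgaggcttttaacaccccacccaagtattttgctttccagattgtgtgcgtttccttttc
The search took both strands for the CCAAT box (CCAAT), the TATA box (TATAAA), the GC box (GGGCGG), the AP-1 site (TGANTCA) and the CArG box, the serum response factor site, by its name. RHOB held CCAAT boxes at -115 to -111 and, on the minus strand, at -66 to -62, counted back from the start. Its GC boxes lay at -139 to -134 on the minus strand and at -121 to -116 on the plus strand. The first CCAAT box and the second GC box of RHOB adjoin without overlap. RND3 held a CArG box at -72 to -63 and a CCAAT box on the minus strand at -18 to -14, and no searched motif was in the CDC42EP3 window. Among 27305 RefSeq promoter windows of the same length, 33% held a CCAAT box, 11.1% a TATA box, 42.3% a GC box, 6.6% an AP-1 site and 1.14% a CArG box. Of the 38 genes 32 were matched to a window, of which 12 held a CCAAT box, 1 a TATA box, 28 a GC box, 3 an AP-1 site and 3 a CArG box, the last in CNN2, RND3 and TPM4. A match describes letters in a window and not a bound site.

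The 3 parents differed in MSN, CDC42EP3 and RHOB in the limma F test, 3 of the 38 genes, compared with 5.29% of all genes. Each parent mean enters the subline comparison of its line too. MSN lay below the low-value limit on both Detroit parent arrays, so its differences are bounds. With those arrays set at the limit, the MSN mean was at least 8.11-fold lower in the Detroit parent than in the Fadu parent. Against the OECM1 parent it was at least 12.3-fold lower. These bounds are for means and leave out the spread of duplicates. The limma adjusted p values on the values as deposited were 0.0016 and 4.067e-04. CDC42EP3 was 7.91-fold higher in the Detroit parent than in the Fadu parent, with a log2 difference of 2.98 and a limma adjusted p of 0.0284. That call was lost without the first Detroit parent array, either Fadu parent array or either OECM1 subline array, with adjusted p between 0.0528 and 0.216. RHOB was 5.39-fold lower in the Detroit parent than in the OECM1 parent, at 5.11 and 4.63 against 7.31 and 7.29, with a log2 difference of -2.43 and a limma adjusted p of 0.0014.

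Between the Detroit and Fadu parents limma called 2.58% of all genes, 1.29% in each direction, and 2 of the 38. Arrays did not overlap in 10 of the 38 that were higher and 7 that were lower in the Detroit parent, where the shares over all genes were 26.6% and 24.8%. Between the Detroit and OECM1 parents it called 3.4% of all genes, 1.53% higher and 1.87% lower, and 2 of the 38, both lower. Arrays did not overlap in 9 genes higher and 9 lower in the Detroit parent, where the shares over all genes were 21.1% and 22.1%. CNN3, a calponin of nonmuscle cells, read 5.82 and 5.83 in the Detroit parent, against 7.14 and 7.43 in the Fadu parent, a log2 difference of -1.46 with a limma adjusted p of 0.14. It was called when both Detroit-labelled subline arrays were left out, with an adjusted p of 0.0326, compared then with 4.07% of all genes. Left out in the same way, the F test over the parents called 5 of the 38, adding CNN3 and RND3, compared with 8.15% of all genes, and the Detroit and OECM1 parents still differed in 2, compared with 5.74% of all.

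In 19 of the 38 genes the group means spanned 1 log2 unit or less, compared with 61.0% of all tested genes. No comparison called 33 of the 38, or 86.8%, compared with 82.7% of all tested genes. Among the crosslinkers, ACTN1, the alpha-actinin of stress fibres, had group means between 9.56 and 10.24, and PLS3, the plastin of epithelial and other solid tissue cells, between 8.96 and 9.73. FSCN1, which encodes fascin, the bundler of filopodia and invadopodia, had subline effects of -0.84, -0.25 and 0.21 in the Detroit-labelled, Fadu and OECM1 comparisons. Its second probe set gave -0.51, -0.01 and 0.19, and the duplicates differed widely in the Detroit-labelled subline, at 8.02 and 5.90. ACTN4, the alpha-actinin of lamellipodia, had effects of 0.34, 0.58 and 0.48, above 0 in every line and not called in any.

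Among filament turnover genes, CFL1, which encodes cofilin, read between 11.94 and 12.96 over the 12 arrays. PFN2, a profilin that delivers actin monomers, had subline effects of -0.22, 0.34 and -0.24, and CAPG, which caps filament ends, 0.25, -0.25 and 0.00. GSN, which encodes the severing protein gelsolin, read 5.76 and 6.38 in the Detroit-labelled subline, against 7.03 and 6.69 in the Detroit parent, a log2 fold change of -0.79 with a limma adjusted p of 0.269. LIMK2, the kinase that inactivates cofilin, read 6.13 and 6.45 in the Detroit-labelled subline, against 6.88 and 6.91 in the Detroit parent, a log2 fold change of -0.61 with a limma adjusted p of 0.291. The Arp2/3 subunit ARPC5 had effects of 0.46, -0.39 and -0.07 in the 3 lines, and the formin DIAPH1 had 0.06, 0.16 and -0.64. At focal adhesions, the mechanosensor ZYX had effects of 0.55, 0.02 and 0.39 and the adaptor PXN -0.24, 0.21 and -0.19. The second PXN probe set had effects of -0.11, 0.14 and 0.55. The heavy chain MYH9 of nonmuscle myosin II had -0.15, 0.49 and 0.31, and TPM4 had -0.07, 0.38 and 0.41. The calponin family members TAGLN2 and CNN2 had -0.44, -0.40 and 0.11, and 0.00, 0.23 and 0.12.

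Beyond the 38, lists of 204 further genes of the same pathways held 156 tested genes. These lists were chosen with earlier results known. Between the Detroit-labelled subline and the Detroit parent, 10 of the 156, or 6.41%, were called, 6 higher and 4 lower, compared with 3.28% of all genes. Higher were ARHGAP29 by 4.40 log2 units, the filopodial GTPase gene RHOF by 2.73, the Cdc42 effector CDC42EP1 by 2.37, the integrin activator FERMT2 by 2.27, the capping subunit CAPZA1 by 1.84 and the Arp2/3 activator WASF3 by 1.59. Lower were RHOBTB3 by -4.57, the matrix protein and SRF target THBS1 by -3.38, the adaptor SORBS2 by -3.29 and RHOA by -1.48. Of these 10 calls 5 held when any single array was left out, and 5 were lost without at least 1 array. Of the 5 that held, RHOF, ARHGAP29 and FERMT2 were lost when only the 4 arrays of this comparison were fitted, and RHOBTB3 and SORBS2 held under every alternative that tested them. None of the 156 was called between the Fadu subline and parent, between the OECM1 subline and parent, or between the Detroit-labelled subline and the Fadu parent.

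Between the OECM1 and Fadu lines 25 of the 156, or 16.0%, were called, 12 higher and 13 lower in OECM1, near the 14.7% of all genes, and 7 of the 25 calls held without any single array. DLC1 was 17.6-fold higher in OECM1 at 4.14 log2 units, with a limma adjusted p of 1.574e-05, but its 2 other probe sets gave -0.09 and 1.71. The other 11 genes higher in OECM1 were RHOBTB3 by 3.64, THBS1 by 2.65, the SRF and YAP target CCN1 by 2.07, ARHGEF18 by 1.56, the spectrin SPTAN1 by 1.48, ARHGAP29 by 1.36, the filament-elongating ENAH by 1.31, the membrane linker SVIL by 1.14, the formin FHOD1 by 1.07, the alpha-actinin partner PDLIM1 by 1.03 and the class I myosin MYO1E by 0.89 log2 units. Other probe sets ran from 0.50 to 3.81 for RHOBTB3, 0.12 to 3.35 for THBS1, -0.01 to 1.74 for SPTAN1 and -0.12 to 0.56 for SVIL. Among the 13 lower in OECM1, the unconventional myosin MYO5C and RHOF were both at -2.21, the focal adhesion protein TGFB1I1 at -2.16, the immediate early gene EGR1 at -1.93 and the Rac and Cdc42 scaffold IQGAP1 at -1.71. The formin DIAPH2 was at -1.46, the kinase PKN2 at -1.21, FERMT2 at -1.05, ARHGAP1 at -1.03, CAPZA1 at -0.99, the myosin light chain MYL6 at -0.88, the profilin PFN1 at -0.83 and the kinase PAK4 at -0.72. Other probe sets ran from -2.19 to -1.90 for IQGAP1, -1.15 to -0.65 for FERMT2 and -0.84 to -0.05 for PKN2. They ran from -0.85 to -0.01 for PAK4, -0.66 to 0.00 for ARHGAP1 and -0.52 to -0.14 for DIAPH2. The other probe set gave -0.42 for EGR1, -0.17 for MYL6 and, among the genes higher in OECM1, 1.48 for CCN1. DIAPH2 lay below the low-value limit on 8 arrays, and 8 alternatives that kept both arrays of each fitted group ended its call. The calls that held under every alternative were those of DLC1, RHOBTB3, THBS1, ARHGEF18, MYO5C, RHOF and FERMT2.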

How the data were processed

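Expression was measured on 12 Affymetrix arrays in 6 groups of 2. The deposited table held log2 values for 22283 probe sets, made by the authors with RMA, and the submitters' processing notes name Partek version 7 besides RMA. RMA compresses low values, and the table held no detection calls. No genome build is given in the sources used here. Arrays have no read depth, and their number limited the precision.

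The platform's probe-gene table gave names: 19065 carried 1 symbol, 1043 several and 2107 none, apart from 68 controls, and identifiers of 19053 matched RefSeq. A gene took the single-symbol probe set with the highest mean, and 8992 of 11963 genes had at least 2 arrays above the 40th percentile of all values, 4.52. Probe sets of close relatives, such as the actinins and tropomyosins, can share signal. A limma 3.58.1 model in R 4.3.3 with 6 group means, 1 shared spread and an intensity trend was fitted to all genes, with Benjamini-Hochberg adjustment and a threshold of 0.05. It was run on simulated arrays with noise independent between genes and arrays, so differences shared between arrays were not covered by that check.

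Differences between duplicates of subline and parent correlated over genes at -0.19 in Detroit, -0.38 in Fadu and -0.40 in OECM1. Like replicate numbers thus did not go together, and arrays of opposite number tended to share differences. The labels do not say whether replicate numbers pair samples. No block entered the main model, and blocks by like and by crossed numbers were alternatives. The alternatives changed the filter, probe set choice, moderation, array weights, scaling, an ACTB covariate, the arrays fitted and the block, and left out each array in turn.

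All genes of the list are accounted for. Array values are given for each called gene and for up to 4 uncalled genes a line with the largest fold change among those whose arrays did not overlap, and pathway genes are named if called between a subline and its parent or between the OECM1 and Fadu lines. MYO10, TLN1, GSN, LIMK2, CNN3 and the flat genes described by effects were added after their values were seen. The genes and lists were chosen with earlier results of these data known. Protein sequences were not used here.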

Additional observations from a re-analysis of the deposited data

Results flagged for a closer look

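No gene of the 38 had subline effects that differed between lines at the threshold. In the wider pathway lists 4 named genes did, by the limma F test over the 3 effects, and for each the Detroit-labelled effect stood apart. SORBS2 had an adjusted p of 0.0026. It read 4.08 and 3.62 in the Detroit-labelled subline, against 6.90 and 7.37 in the Detroit parent, a log2 fold change of -3.29, where the Fadu effect was 0.10 and the OECM1 effect 0.12. Its second probe set gave -0.44 in the Detroit-labelled comparison. RHOBTB3 had an adjusted p of 0.0112, with effects of -4.57 in the Detroit-labelled, -0.18 in the Fadu and -1.81 in the OECM1 comparison. It read 5.96 and 7.16 in the OECM1 subline, against 8.26 and 8.48 in the OECM1 parent, and its other probe sets gave Detroit-labelled values between -4.34 and -0.30. ARHGAP29 had an adjusted p of 0.0254, with effects of 4.40, 0.76 and 0.26 in the same order of lines. It read 8.96 and 10.19 in the Detroit-labelled subline, against 5.65 and 4.70 in the Detroit parent. RHOF had an adjusted p of 0.0469, with effects of 2.73, 0.06 and -0.07. Neither SORBS2 nor RHOBTB3 was above the low-value limit in the Detroit-labelled subline or in either Fadu group, nor SORBS2 in either OECM1 group, and all 4 results rest on the arrays labelled Detroit invasion subline.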

How the results depend on the processing

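In the Fadu, OECM1 and averaged comparisons, and between the Detroit-labelled subline and the Fadu parent, 0 of the 38 genes were called under every alternative, and LCP1, MYL9, TAGLN and TPM2 in Fadu and ARPC2, MYL9, RAC2 and RHOC in OECM1 kept their sign under each. The Detroit-labelled comparison had 2 calls. It had 0 when only its own 4 arrays were fitted (0.523% of all genes), 1 (MSN) with the replicate number as a block (1.31%), and 1 to 5 without single arrays: 5 without the first Detroit-labelled subline array (CORO1C, EZR and FSCN1 added), where 10.2% of all genes were called, and 1 without the first Detroit parent array, where 1.42% were. Over all genes the block gave 118 calls in place of 295 there, 29 in place of 63 in the difference between lines, and 0 in place of 2 in Fadu, and it moved no other count of the 38. A crossed pairing of the replicate numbers, chosen after seeing the data, gave 4 calls there (5.57% of all genes) and 1 in the difference between lines. That difference, with 0 calls, had 1 (MSN) with the ACTB covariate and 0 to 2 without single arrays, MSN without either Detroit-labelled subline array, and CDC42EP3 and TAGLN without the second Detroit parent array.

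The 3 parents differed in 3 genes, in 2 to 5 without single arrays, and in 5 without both Detroit-labelled subline arrays. The OECM1 and Fadu lines differed in 4, in 3 to 7 without single arrays, and in 7 without both; 7 also came from leaving out either of the 2. The Detroit and Fadu parents differed in 2, and in 1 to 3 without single arrays, with MSN kept each time CDC42EP3 was lost. The RHOB and RND3 calls between OECM1 and Fadu, and the MSN calls between parents, held under all 24 alternatives. MSN against its own parent was lost only with its own 4 arrays, at an adjusted p of 0.0941, and CDC42EP3 there was also lost with the replicate block, at 0.0563. With 2 arrays a group the median SE of a log2 fold change of the 38 was 0.419 between 2 groups and 0.297 between the OECM1 and Fadu lines. Effects of that size could not be told from 0, and neither could some much larger ones after adjustment over all genes. LCP1 in Fadu, at 1.49 with an SE of 0.424, had a limma adjusted p of 0.9999. Values under 4.52 are of uncertain size.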
